A study of Mus musculus with 24 samples.

Results

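Amd2 and Azin1 are regulators of polyamine levels, and each had probes on the arrays of this heat shock study of mouse embryos. Their probes are those for which the platform annotation gives exactly 1 gene symbol, equal to Amd2 or Azin1. This yielded 2 of the 6970 genes with 1 symbol and 4 of the 15360 probes: 1 for Azin1 on slide type 1, and 2 for Azin1 and 1 for Amd2 on slide type 2. The pair was selected on the heat shock log ratios of these same arrays, so those ratios are described here without a test. No filter on low values was applied, and all 4 probes had a value on every array.

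Embryos were kept in culture, and the heated group was brought to 43 °C for 15 min, put back at 37 °C and taken 1 h later, whereas the controls stayed at 37 °C without treatment. The sources used here do not give the strain or age of the embryos, or say whether embryos were pooled; the labels also speak of 4-hydroperoxycyclophosphamide and of cultures taken later, which were not analysed here. Total RNA of heated and control embryos was set against each other in the 2 channels of an array. Each of 3 numbered treatments was run on 4 arrays of each slide type, 2 with the RNA of heated embryos in channel 1 and 2 with it in channel 2, which makes 24 arrays. In each pair, 1 array has a suffix in its slide code whose meaning is not stated. The slide types carry different probes, and 12 arrays belong to each.

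Polyamines are small, positively charged molecules that bind nucleic acids and are needed for growth and translation. Ornithine decarboxylase, encoded by Odc1, makes putrescine. S-adenosylmethionine decarboxylase, the product of Amd1 and Amd2, makes the aminopropyl donor that spermidine synthase (Srm) and spermine synthase (Sms) add to putrescine and spermidine. Antizymes (Oaz genes) bind ornithine decarboxylase, hand it to the proteasome and restrain polyamine uptake. Azin1, antizyme inhibitor 1, resembles ornithine decarboxylase, has no decarboxylase activity, and binds antizyme in its place.

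Amd2 and Amd1 are close copies, and the array cannot be assumed to separate them. No probe of either slide type carried the single symbol Amd1, and the RefSeq gene table (GRCm38.p6) lists a further 7 Amd pseudogenes. The windows around the annotated transcript starts show what the genes share. From RefSeq, 250 bases before to 30 bases after each start are given 5′ to 3′ below, with the longest stretch that both windows hold in capitals. The Amd2 window is chr10:35711862-35712141 and the Amd1 window chr10:40302159-40302438, both on the minus strand of GRCm38.p6.
Amd2: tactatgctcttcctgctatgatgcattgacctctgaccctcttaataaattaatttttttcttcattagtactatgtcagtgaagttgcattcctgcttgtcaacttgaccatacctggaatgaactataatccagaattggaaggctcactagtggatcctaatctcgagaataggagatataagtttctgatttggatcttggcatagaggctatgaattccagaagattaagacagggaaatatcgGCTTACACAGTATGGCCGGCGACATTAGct
Amd1: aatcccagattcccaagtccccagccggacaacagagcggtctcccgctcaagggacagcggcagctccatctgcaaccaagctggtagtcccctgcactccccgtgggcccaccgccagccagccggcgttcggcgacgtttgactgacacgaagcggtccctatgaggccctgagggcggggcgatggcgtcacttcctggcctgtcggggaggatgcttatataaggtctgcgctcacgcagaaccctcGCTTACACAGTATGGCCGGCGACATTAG
The shared stretch was 28 bases long and began at base 1 of the Amd2 transcript and base 3 of the Amd1 transcript. In the longer windows, which run 50 bases past the start, it was 48 bases. The printed stretch ran to the last base of the Amd1 window, so the window length limits how much likeness could be seen. Before the start the windows differed, and 37.6% of the 250 bases were G or C in Amd2 against 64.4% in Amd1. The value given for Amd2 below may therefore hold signal from Amd1 transcripts, and this was not tested.

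Heat shock factors bind inverted repeats of the letters GAA, so the windows of 300 bases were searched for GAANNTTC and TTCNNGAA, each of which reads the same on both strands. Amd2 had 1 match, TTCCAGAA, at positions −29 to −22 from the start, and Amd1 and Odc1 had none. Hspb1, the small heat shock protein Hsp27, had 2 matches, GAAGTTTC and GAACCTTC, at −117 to −110 and −97 to −90. Hsph1, an Hsp110 chaperone, has 2 annotated windows that hold the same 3 matches at shifted positions, of which TTCTGGAA and GAAAGTTC overlap. Of 32851 such windows of all genes, 15.1% held either motif, and the motifs can overlap. A match is a run of letters and not a shown binding site. No Azin1 window was among those searched here.

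The deposited value is a log ratio whose base and numerator are not stated. Values are given in log units, centred on the median of each array, and turned by channel order. A positive value means a higher signal in the heated embryos if channel 1 is the numerator. With channel 2 as numerator the sides change places and the sizes stay. The heat shock genes Hsph1 and Hspb1 mark the positive side. Hsph1 on slide type 1 had 1.90, 2.85 and 2.10 in treatments 1, 2 and 3, and Hspb1 on slide type 2 had 2.18, 2.28 and 2.24. Each was positive on 12 of 12 arrays.

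Amd2 lay far on the side opposite to these heat shock genes. Its log ratio was −1.24 in treatment 1, −1.06 in treatment 2 and −1.02 in treatment 3, which gives −1.11 ± 0.12 (SD, n = 3 treatments). A difference of this size is 2.15-fold if the log has base 2, and 3.02-fold if it is natural. Over the 12 arrays the values ran from −1.72 through a median of −1.12 to −0.38, so that every array was on the negative side (11 of 12 without centring). On slide type 2, 117 of 7680 probes (1.52%) were negative on all 12 arrays. By its mean, Amd2 was the 10th lowest of the 7680 probes.

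The treatments came out alike for Amd2 although their arrays did not. With RNA of heated embryos in channel 1, the 2 arrays of treatment 1 had −1.38 and −1.59, those of treatment 2 had −0.38 and −0.49, and those of treatment 3 had −0.87 and −1.23. With it in channel 2, the values were −1.23 and −0.78, −1.72 and −1.64, and −0.95 and −1.01. Treatment 2 thus held both the smallest and the largest sizes, separated by channel order without overlap. In treatment 1 the larger values lay in the other channel order, and in treatment 3 the orders overlapped.

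Azin1 on slide type 2 lay on the same side as Amd2, at a smaller size. Its first probe had −0.54, −0.39 and −0.42 in treatments 1, 2 and 3 (−0.45 ± 0.08, SD, n = 3), and its second −0.54, −0.48 and −0.41 (−0.47 ± 0.07). The first probe was negative on 11 of 12 arrays, from −0.93 through a median of −0.46 to 0.17, and the second on 12 of 12, from −0.90 through −0.53 to −0.028. The single positive value came from treatment 2 with RNA of heated embryos in channel 1. These array counts depend on the centring. Without it each probe was negative on 8 of 12 arrays, and the 4 positive ones all had RNA of heated embryos in channel 2. The mean over that channel order was then 0.20 and 0.13 for the first and second probe, against −0.94 and −0.91 in the other order. Uncentred values still hold the array median, which with channel 2 ran from −1.28 to 0.078 before the sign was turned. By their centred means the Azin1 probes were the 213th and 172nd lowest of 7680 probes.

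The 2 probes of Azin1 on slide type 2 agreed closely. Their means differed by 0.025 units, whereas the median range between probes of a gene was 0.12 units over the 685 genes with 2 or more probes there. Of those genes, 89 had a smaller range. On single arrays the probes differed by −0.19 to 0.20 units. Across the 12 arrays they had r = 0.95 with each other, and Amd2 had r = 0.97 with the first and 0.94 with the second. The 12 points share arrays, treatments and channel orders, so these values describe how the probes ran along together. Probes of other genes reached similar values, such as Plxna3 with r = 0.98 for the first Azin1 probe and 0.97 for the second. Amd2 lay below the first Azin1 probe on every array, by 0.46 to 0.84 units, and below the second by 0.34 to 0.88 units.

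**Figure D1:**
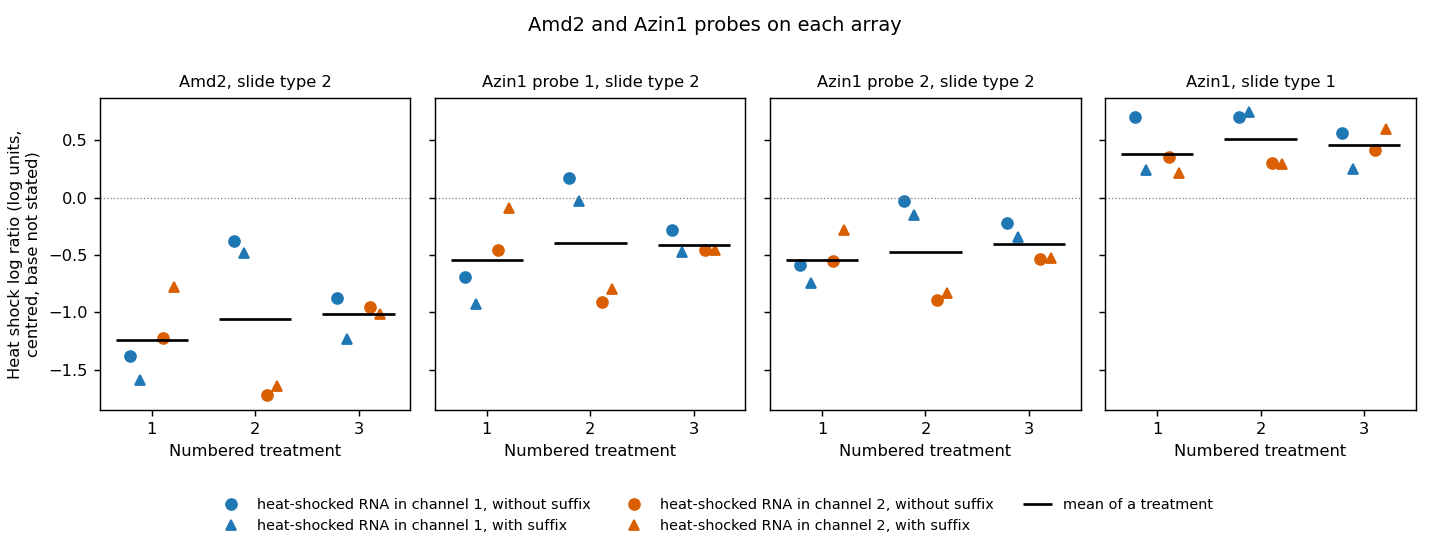
Heat shock log ratio (y axis, log units centred on each array's median) of the Amd2 probe and the 3 Azin1 probes on each array, by numbered treatment (x axis); colour gives the channel of the RNA of heated embryos, shape the suffix, and black lines the treatment means. The slide type 2 probes lie almost wholly below 0 with the channel orders far apart in treatment 2, and Azin1 on slide type 1 lies above 0 on all 12 arrays.

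On slide type 1 Azin1 lay on the other side. Its probe had 0.38, 0.51 and 0.46 in treatments 1, 2 and 3, hence 0.45 ± 0.07 (SD, n = 3), which is the side of Hsph1 and Hspb1. All 12 arrays were positive, from 0.21 through a median of 0.39 to 0.74, as were 559 of 7680 probes (7.28%) of that slide type. The probe was the 358th highest of 7680. In treatments 1 and 2 the mean was higher with RNA of heated embryos in channel 1 (0.47 against 0.28, and 0.72 against 0.30), and in treatment 3 it was lower (0.40 against 0.51).

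**Figure D2:**
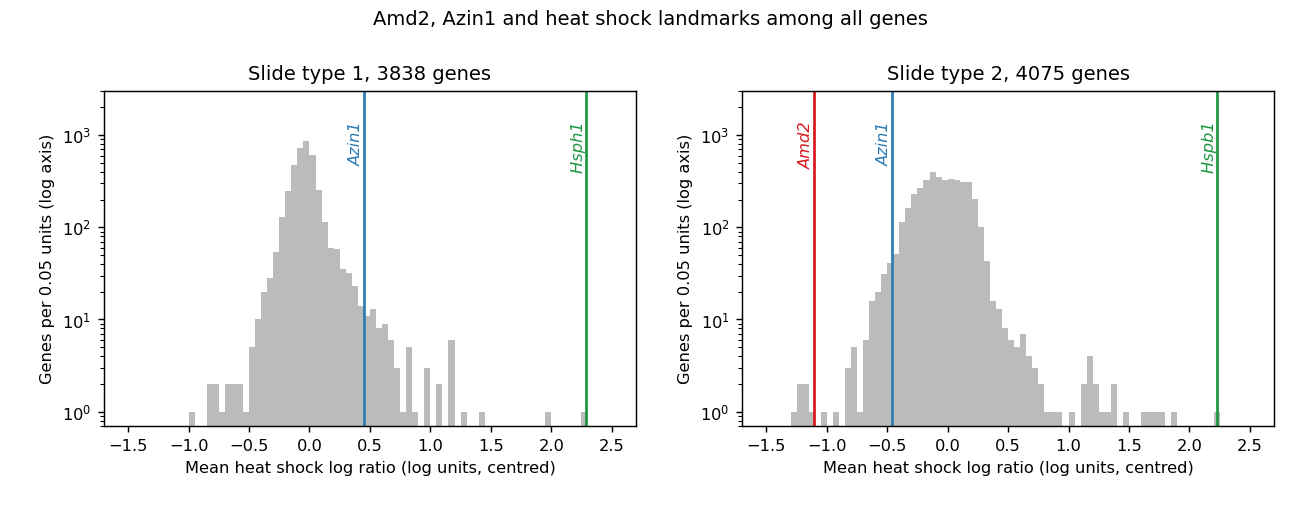
Histograms of the mean heat shock log ratio (x axis, log units) of all genes with 1 symbol on slide type 1 (3838 genes) and slide type 2 (4075 genes), with the number of genes per 0.05 units on a log axis. Vertical lines mark Azin1 at 0.45 and Hsph1 on slide type 1, and Amd2 at −1.11, Azin1 at −0.46 and Hspb1 on slide type 2.

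The slide types therefore gave Azin1 opposite sides. The lowest array value on slide type 1, 0.21, lay above the highest on slide type 2, 0.17, but without centring the arrays overlapped, with 0.13 as the lowest and 0.55 as the highest. With the probes of slide type 2 averaged (−0.46 ± 0.07), slide type 2 minus slide type 1 was −0.92, −0.94 and −0.87 units in treatments 1, 2 and 3, a mean of −0.91 ± 0.04 (SD, n = 3). This difference was among the reasons for choosing the gene and was not tested. Of 943 genes measured on both slide types, 14 others had a larger difference in size, and the median size was 0.15 units. The slide types agreed only loosely, with r = 0.28 between their means over these genes. Opposite sides in all 3 treatments were seen for 51 genes in the direction of Azin1, itself included, and for 46 in the other direction. The platform annotation ties the 3 Azin1 probes to different sequence records of the gene, and RefSeq lists 7 Azin1 transcript records against 1 for Amd2. Which transcripts or which part of them each probe holds was not analysed here, and its part in the difference was not tested.

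**Figure D3:**
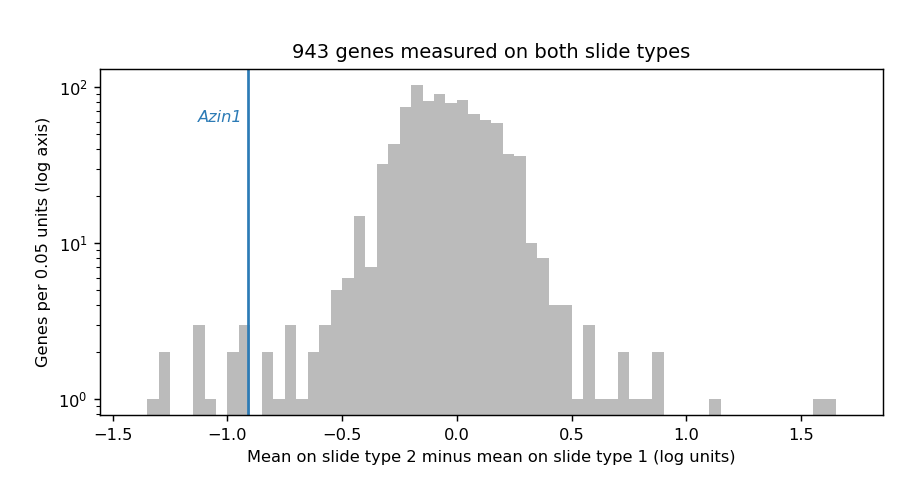
Mean heat shock log ratio on slide type 2 minus that on slide type 1 (x axis, log units) for the 943 genes measured on both, with the number of genes per 0.05 units on a log axis. The line marks Azin1 at −0.91, in the sparse lower tail.

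The pattern of each probe over the 12 arrays of its slide type was set against all probes with 1 symbol of other genes, by the root mean square (RMS) difference. Nearest to Amd2 were Fas, a death receptor (RMS difference 0.20, r = 0.93), Gas1, a growth arrest protein of the cell surface (0.22, r = 0.89), Marcks, a protein kinase C substrate (0.25, r = 0.86), the surface glycoprotein Cd24a (0.26, r = 0.87) and 1 probe of the sterol enzyme gene Msmo1 (0.32, r = 0.87). Their means ran from −1.21 to −0.86. These are single probes, and the mean over both probes of the gene was 0.31 for Msmo1 and −0.95 for Marcks. The nearest neighbours of Azin1 had smaller RMS differences. Plxna3, a semaphorin receptor, came first for both Azin1 probes of slide type 2 (RMS differences 0.072 and 0.082, r = 0.98 and 0.97). It was followed by Trim59, Phf6, Pea15a and Rgs19 for the first probe, and by Slc2a4, Atp6v1b2, Pomgnt1 and Etv5 for the second, at 0.091 to 0.12. Atp6v1b2 has 2 probes, with −0.47 at the nearest and a gene mean of −0.18. On slide type 1 the nearest to Azin1 were Kcnk6 (RMS difference 0.11, r = 0.82), Ppef2, Was, Ajuba and Usp39, the last 4 at 0.13 to 0.14. All of these share the arrays and channel orders with the probe they resemble.

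Channel order gives a measure that the choice of genes did not use. The channel component is the mean of the centred ratios over both orders, with no sign turned, in which the heat shock ratio cancels. For Azin1 on slide type 1 it was 0.094, 0.21 and −0.051 in the treatments, or 0.085 ± 0.13 (SD, n = 3, positive in 2 of 3 treatments), and did not pass limma's test over all 7680 probes (adjusted p = 0.365). There 22.2% of probes passed. Without centring it was 0.21 and passed (limma adjusted p = 0.0272, range over the alternatives 0.0272 to 0.894), but 4081 of the 7680 probes then passed.

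On slide type 2 the channel component was uneven between treatments. Amd2 had −0.24, 0.62 and −0.034 (0.12 ± 0.45, limma adjusted p = 0.839), the first Azin1 probe −0.27, 0.46 and 0.038 (0.078 ± 0.37, limma adjusted p = 0.894) and the second −0.13, 0.39 and 0.12 (0.13 ± 0.26, limma adjusted p = 0.823). Treatment 2 was highest in all 3 probes. Without centring the means lay on the negative side, from −0.57 to −0.52, and did not pass either (limma adjusted p = 0.271 to 0.291). Only 0.0130% of the probes of this slide type passed the test, 1 of 7680, so that a missed threshold says little here. Without treatment 1 the test called 1362 probes, without treatment 2 it called 1 and without treatment 3 it called 0.

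The other genes of polyamine metabolism were taken from 6 lists of 56 genes, of which 54 are neither Amd2 nor Azin1. Slide type 1 measured 12 of these 54 and slide type 2 measured 19. Slide type 1 had 1 change by limma (adjusted p under 0.05), on the negative side, beside 5.65% of all genes on that side, 5.73% on the positive side and 11.4% on either. Slide type 2 had 5 changes to each side, beside 18.5% of all genes positive, 31.9% negative and 50.4% on either. The list medians were −0.031 on slide type 1 and 0.0034 on slide type 2, against −0.038 and −0.049 over all genes. These shares are near the background.

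Among the enzymes of synthesis, Odc1 and Srm did not pass on slide type 1. Odc1 had −0.045, −0.0026 and 0.16, a mean of 0.039 ± 0.11 (limma adjusted p = 0.766) over 2 probes at 0.018 and 0.060, and Srm had −0.11 ± 0.06. Sms on slide type 2 had −0.12 ± 0.08 (limma adjusted p = 0.0946), over 2 probes that disagreed at −0.30 and 0.062. Arg2, the mitochondrial arginase that supplies ornithine, was changed on the positive side there, with 0.45, 0.12 and 0.38 and a mean of 0.32 ± 0.17 (limma adjusted p = 0.00119). These means were smaller in size than that of Amd2. Since Amd2 was selected on these same ratios, that order follows from the choice and is no result about the pathway.

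The antizymes, which Azin1 binds, did not share 1 side on slide type 2. Oaz1, the widely expressed antizyme, was changed on the negative side at −0.26 ± 0.11 (limma adjusted p = 0.00267), a value that came from 1 channel order, with −0.00084 when RNA of heated embryos was in channel 1 and −0.51 when it was in channel 2. Oaz2 was changed on the positive side at 0.15 ± 0.02 (limma adjusted p = 0.035), but its 2 probes lay at −0.12 and 0.42, and the call was lost without treatment 1 (0.15) and without treatment 3 (0.14). On slide type 1 it had 0.088 ± 0.23 (limma adjusted p = 0.564). Oaz3, known from testis, had −0.11 ± 0.08 and Azin2, the second antizyme inhibitor, 0.11 ± 0.07. Neither passed, but without treatment 2 both did, at −0.15 and 0.15. Azin2 also passed with centring on probes with 1 symbol (0.19) and with the median of the 4 arrays (0.15). With RNA of heated embryos only in channel 1 it had −0.13 and did not pass.

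Breakdown was covered by 1 gene a slide type, and neither passed. Sat1, the acetyltransferase that starts polyamine export and breakdown, had −0.11 ± 0.14 on slide type 2, and Smox, spermine oxidase, 0.00018 ± 0.11 on slide type 1. Of the transport list, Gpc1, a glypican whose heparan sulfate chains take part in polyamine uptake, was changed on the negative side at −0.47, −0.58 and −0.46, a mean of −0.51 ± 0.07 (limma adjusted p = 4.73e-06). Most of this size came from 1 channel order, with −0.11 when RNA of heated embryos was in channel 1 and −0.90 when it was in channel 2. Caveolin 1, Cav1, and the vesicular polyamine transporter Slc18b1 were changed on the positive side at 0.30 ± 0.19 and 0.21 ± 0.05. Cav1 lost its call without treatment 1 (0.20), and Slc18b1 without treatment 1 (0.18) or without treatment 3 (0.21). Slc3a2, a heavy chain of amino acid transporters, had −0.062 ± 0.20 on slide type 1 and did not pass.

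Spermidine is also the donor for hypusine, the modified lysine of the translation factor Eif5a. Eif5a was changed on the negative side of slide type 2 at −0.24 ± 0.16 (limma adjusted p = 0.0055), again from 1 channel order (−0.0075 with RNA of heated embryos in channel 1 and −0.48 with it in channel 2), while its relative Eif5a2 had 0.0034 ± 0.09 there and the hypusine enzyme Dhps −0.14 ± 0.10 on slide type 1, without passing. With the treatment as a replicate block over the arrays Dhps passed (limma adjusted p = 0.026).

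S-adenosylmethionine, the substrate of the Amd enzymes, is made by Mat enzymes and its by-products are recycled. Mtap, which salvages the methylthioadenosine left by spermidine and spermine synthesis, was changed on the negative side of slide type 2 at −0.42, −0.51 and −0.34, a mean of −0.42 ± 0.08 (limma adjusted p = 3.58e-05). Ahcy, which clears S-adenosylhomocysteine, was changed on that side at −0.34 ± 0.09, and had −0.082 ± 0.14 on slide type 1 without passing. Mat1a was changed on the positive side at 0.18 ± 0.03, a call lost without treatment 1 (0.19), without treatment 3 (0.18) or with the replicate block (limma adjusted p = 0.0509). Mat2b, a regulatory subunit, had −0.13 ± 0.09 over 3 probes that ran from −0.47 to 0.29, and Cth 0.13 ± 0.12 over 2 probes at −0.076 and 0.33. Neither passed, but Mat2b did with the replicate block (limma adjusted p = 0.0188) and Cth without treatment 2, at 0.19. Cth also passed with centring on probes with 1 symbol, at 0.20. Enoph1, of the methionine salvage pathway, was the 1 change on slide type 1, at −0.22 ± 0.12 (limma adjusted p = 0.049), and lost its call without treatment 1 (−0.25), without treatment 2 (−0.25) or without treatment 3 (−0.15). The other 6 values of this list, of Adi1, Ahcyl1, Ahcyl2, Bhmt, Cbs and Mtrr, ran from −0.14 to 0.083 and did not pass.

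**Figure D4:**
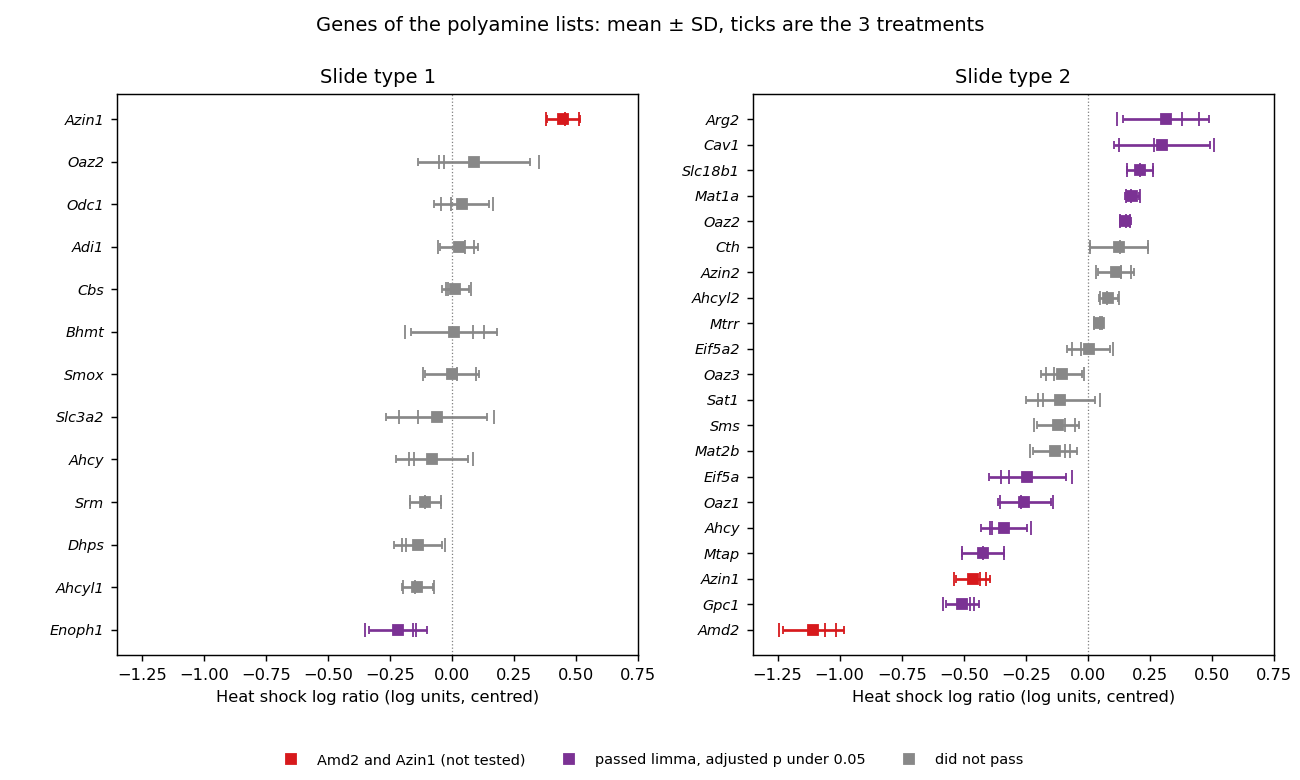
Mean heat shock log ratio (x axis, log units) with its SD over 3 treatments, and each treatment as a tick, for the genes of the polyamine lists on slide types 1 and 2; red marks Amd2 and Azin1, purple the genes that passed limma's test and grey those that did not. Amd2 is the lowest gene plotted, at −1.11.

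Several of the changed list genes had opposite sides in the 2 channel orders. Of the 10 list genes changed on slide type 2, 5 had the same side in both channel orders. These were Arg2 and Mtap, Gpc1 with a much smaller size in 1 order, and Oaz1 and Eif5a with almost no size in 1 order. The other 5 had opposite sides. Ahcy had 0.12 with RNA of heated embryos in channel 1 and −0.79 with it in channel 2, Cav1 −0.051 and 0.65, Slc18b1 −0.22 and 0.65, Mat1a 0.63 and −0.27, and Oaz2 0.38 and −0.076. Amd2 had −0.99 and −1.22, the Azin1 probes of slide type 2 −0.37 and −0.53, and −0.35 and −0.60, and Azin1 on slide type 1 0.53 and 0.36. Without centring, none of the 10 list genes changed on slide type 2 passed (limma adjusted p = 0.0733 to 0.556), although each kept its side, with −0.42 for Gpc1, −0.34 for Mtap, 0.40 for Arg2, 0.38 for Cav1 and 0.29 for Slc18b1. Amd2, which was not tested, then had −1.02.

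Log ratios give no level, so the tissue could not be checked by the presence of its markers. Of 44 markers of blood, yolk sac, heart, neural and trophoblast cells, 11 were measured on slide type 1 and 6 on slide type 2. No heart marker was measured on either slide type. Slide type 2 also lacked yolk sac and neural markers, and held 5 of blood and 1 of trophoblast. Each slide type had 1 changed marker by limma, Tubb3 of neurons at −0.21 ± 0.04 and Krt18 of epithelia at −0.19 ± 0.14, both negative, beside 11.4% and 50.4% of all genes. The measured markers ran from −0.21 to 0.056 on slide type 1 and from −0.19 to 0.088 on slide type 2. Their part in the values of Amd2 and Azin1 was not tested, and fewer cells of a type and less RNA per cell cannot be told apart in whole embryos. Array medians before centring ran from −0.67 to 0.65 on slide type 1 and from −1.51 to 0.24 on slide type 2. Whether the 3 treatments came from separate litters is not recorded, so p-values speak of the spread between these treatments, and their number limits the precision.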

How the data were processed

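Total RNA of cultured mouse embryos was compared on 24 arrays with 2 channels. The authors deposited 1 processed log ratio per probe and array, handled as a score because its unit is not stated. The sources used here do not name the scanner, background correction, normalization or log base. Each slide type has 7680 probes on 12 arrays, with 0 missing values and 0 unmapped columns. On slide type 1, 4749 probes had 1 gene symbol, 227 several and 2704 none; on slide type 2, 4935, 275 and 2470.

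Values were centred on the array median, arrays with RNA of heated embryos in channel 2 had their sign turned, and the 4 arrays of a treatment were averaged with equal weight for channel orders. Arrays with and without the suffix correlated at r = 0.57 to 0.94 and count within 1 treatment. Gene values average all probes with that 1 symbol, and 3 treatments were tested per slide type with limma 3.58.1 in R 4.3.3 (Benjamini-Hochberg, 0.05). The procedure was also run on simulated independent normal values. Those held no channel orders or array offsets, so the simulation does not cover these. Named were all probes of Amd2 and Azin1, every measured gene of 6 polyamine lists, Hspb1, Hsph1 and the 5 nearest probes by RMS difference. The genes and lists were chosen with earlier results of these data known. Promoter windows are from RefSeq. Figures used matplotlib 3.10.9.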

Additional observations from a re-analysis of the deposited data

Results flagged for a closer look

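Azin1 lay on opposite sides on the 2 slide types in every treatment, with 0.45 on slide type 1 and −0.46 on slide type 2, a difference of −0.91 units. Of 943 genes on both slide types, 51 (5.41%) were positive in all 3 treatments on slide type 1 and negative in all 3 on slide type 2. A further 46 were negative in all 3 on slide type 1 and positive in all 3 on slide type 2. The difference was not tested.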

How the results depend on the processing

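The means of Amd2 and the Azin1 probes kept their side under every alternative that changed 1 choice, and Amd2 stayed within 1 SD of −1.11 there. With 2 choices changed together, an alternative chosen after seeing the data, they did not all do so. Without centring, channel 1 only gave −1.55 for Amd2 and −0.94 and −0.91 for the Azin1 probes of slide type 2. Azin1 on slide type 1 then had 0.96. Channel 2 only gave −0.49, 0.20, 0.13 and 0.54, so both Azin1 probes of slide type 2 had positive means. Uncentred values still hold the array median. On slide type 2 with channel 2 these medians ran from −1.28 to 0.078 before the sign was turned. With centring, the Azin1 probes had −0.53 and −0.60 in that order. Without centring, Azin1 had 0.75 on slide type 1 and −0.37 and −0.39 on slide type 2, and the difference between slide types was −1.13. With centring on probes with 1 symbol the second Azin1 probe had −0.40. With RNA of heated embryos only in channel 1, Azin1 had 0.53 on slide type 1 and −0.35 in its second probe on slide type 2, and only in channel 2, 0.36 and −0.60. The difference between slide types was −0.96 from arrays without the suffix and −0.86 from those with it. Leaving out 1 treatment gave −1.15 to −1.04 for Amd2, 0.42 to 0.48 for Azin1 on slide type 1, −0.48 to −0.40 and −0.51 to −0.44 for its probes on slide type 2, and −0.93 to −0.89 for the difference.

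Counts moved far more. Changed genes, 437 on slide type 1 and 2052 on slide type 2, became 268 and 141 without centring, 839 and 50 with RNA of heated embryos only in channel 1, 194 and 24 only in channel 2, and 15 and 32 in limma's treat test against 0.58 units. They were 750 on slide type 2 with arrays scaled to a common spread and 216 on slide type 1 from arrays with the suffix. With the treatment as a replicate block over 12 arrays they were 706 on slide type 1. Without 1 treatment they ran from 178 to 440 and from 1227 to 2209, lowest without treatment 1 on each slide type. The share on the positive side, 50.3% on slide type 1 and 36.7% on slide type 2, was 98.1% and 53.9% without centring and 68.1% and 59.2% when centred on 1-symbol probes instead. For slide type 1 the median of all genes was 0.27 without centring and −0.038 with it.

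Of the polyamine lists, the 1 call on slide type 1, Enoph1, was kept with the robust prior (1 call) and the replicate block (2 calls) and lost in the other alternatives, which left 0 calls except for Bhmt with channel 1 only. The 10 calls on slide type 2 became 0 without centring and in the treat test, where all 10 kept their side, and 0 with either channel order alone, 3 with a common spread, and 6 to 13 without 1 treatment. Genes called in the main comparison or under the alternative that turned side were Enoph1 without centring (0.086), Bhmt (−0.41), Ahcy (0.12), Cav1 (−0.051) and Slc18b1 (−0.22) with channel 1 only, Mat1a (−0.27) and Oaz2 (−0.076) with channel 2 only, and Oaz2 with the first probe of each gene (−0.12). Genes called in neither also turned side, among them 5 on slide type 1 without centring (Ahcy, Ahcyl1, Dhps, Slc3a2 and Srm) and 5 on slide type 2 with channel 1 only (Azin2, Cth, Mtrr, Sat1 and Sms).

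Probes called by the channel component, 1705 on slide type 1 and 1 on slide type 2, became 4081 and 0 without centring, and were 923 and 0 on arrays with the suffix. On slide type 2 they were 2 on arrays without it and 3 with a common spread. Without 1 treatment they ran from 541 to 2656 and from 0 to 1362, and the component of Azin1 on slide type 1 passed without centring (0.21). The cause of these changes was not tested.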
